A study of Mus musculus with 8 samples.

Results

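The oncofetal genes of the LIN28, HMGA and IGF2BP families were read on arrays of JoMa1 cells, a line of mouse neural crest precursors, and of lines derived from tumours of MYCN-transfected JoMa1. Members were taken by gene symbol, as every probe set whose symbol in the platform annotation was Lin28a, Lin28b, Hmga1, Hmga2, Igf2bp1, Igf2bp2 or Igf2bp3. This gave 17 of the 34945 probe sets that carry 1 gene symbol, and they covered 5 of the 7 genes (of 18193 genes in all): 2 probe sets of Lin28a, 1 of Lin28b, 4 of Hmga2, 4 of Igf2bp1 and 6 of Igf2bp3. Hmga1 and Igf2bp2 were not analysed here.

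The 8 arrays held 3 samples of parental JoMa1, 1 sample of JoMa1 labelled as carrying a GFP control, and 4 lines from tumours that MYCN-transfected JoMa1 raised in immunocompromised mice, numbered 3 to 6. All groups descend from the JoMa1 line, which carries a tamoxifen-activated MYC fusion, and tamoxifen treatment, host strain and the promoter of the MYCN construct are not given in the sources used here. Separate cultures behind the parental arrays, or separate transfections behind the tumours, are not stated, so the p-values measure the spread between these samples, which may in part be technical. Levels are log2 values from RMA, a method that subtracts background, gives all arrays 1 distribution and combines the probes of each set, so that a difference of 1 is a 2-fold change. A difference is given with its standard error (SE), and a probe set was called at an adjusted p under 0.05 in limma, adjusted over all 34945 probe sets.

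LIN28 proteins bind the precursors of the let-7 microRNAs and block their maturation, and let-7 in turn represses mRNAs of Lin28b, Hmga2 and the Igf2bp family, so that these genes form a switch that is set to the fetal state in early tissue. HMGA2 is an architectural chromatin protein that binds AT-rich DNA. IGF2BP proteins bind mRNAs, among them those of Igf2 and Myc, and steer their stability, transport and translation. The genes are high in embryonic tissue and fall as tissue matures, and LIN28B is known in neuroblastoma as a gene that raises MYCN.

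In brief, Hmga2 and 3 of 4 Igf2bp1 probe sets were lower in the tumour lines than in parental cells, Igf2bp3 stayed bright with 1 of 6 probe sets lower, and Lin28a and Lin28b were near background on all arrays. Of the 17 member probe sets, 8 were called lower and 0 higher in tumour lines, and the median difference was -0.35 beside 0.008 over all probe sets. By gene, the medians were -0.77 for Igf2bp1, -0.71 for Hmga2, -0.14 for Igf2bp3, -0.06 for Lin28b and 0.01 for Lin28a. Over all probe sets, 33.9% were called and 18.4% were called lower. The sizes ran from -1.51 to 0.08. Without parental array 1, or without parental array 3, 4 of the 17 were called. In the whole table, 8937 and 9344 of 34945 probe sets were called under these settings, in that order. The 3 bright probe sets of Hmga2 and the Igf2bp1 probe set 1455223_at stayed called under each alternative that kept them. These were 14 to 17 alternatives each. For Hmga2 1422851_at they include the mean of the gene's probe sets, which stood in its place. Alternatives that took 1 probe set per gene, or left out _s_at and _x_at probe sets, dropped some of them. With the probe set of highest mean standing for each gene, 1 of 5 members was called, as lower. On that scale 36% of all genes were called and 19.4% were called lower. All 4 tumour lines lay below all 3 parental arrays for the same 8 probe sets that were called, and over the whole table this held for 22.1%. The calls rest on the same values, so this is no separate check of them.

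**Figure D1:**
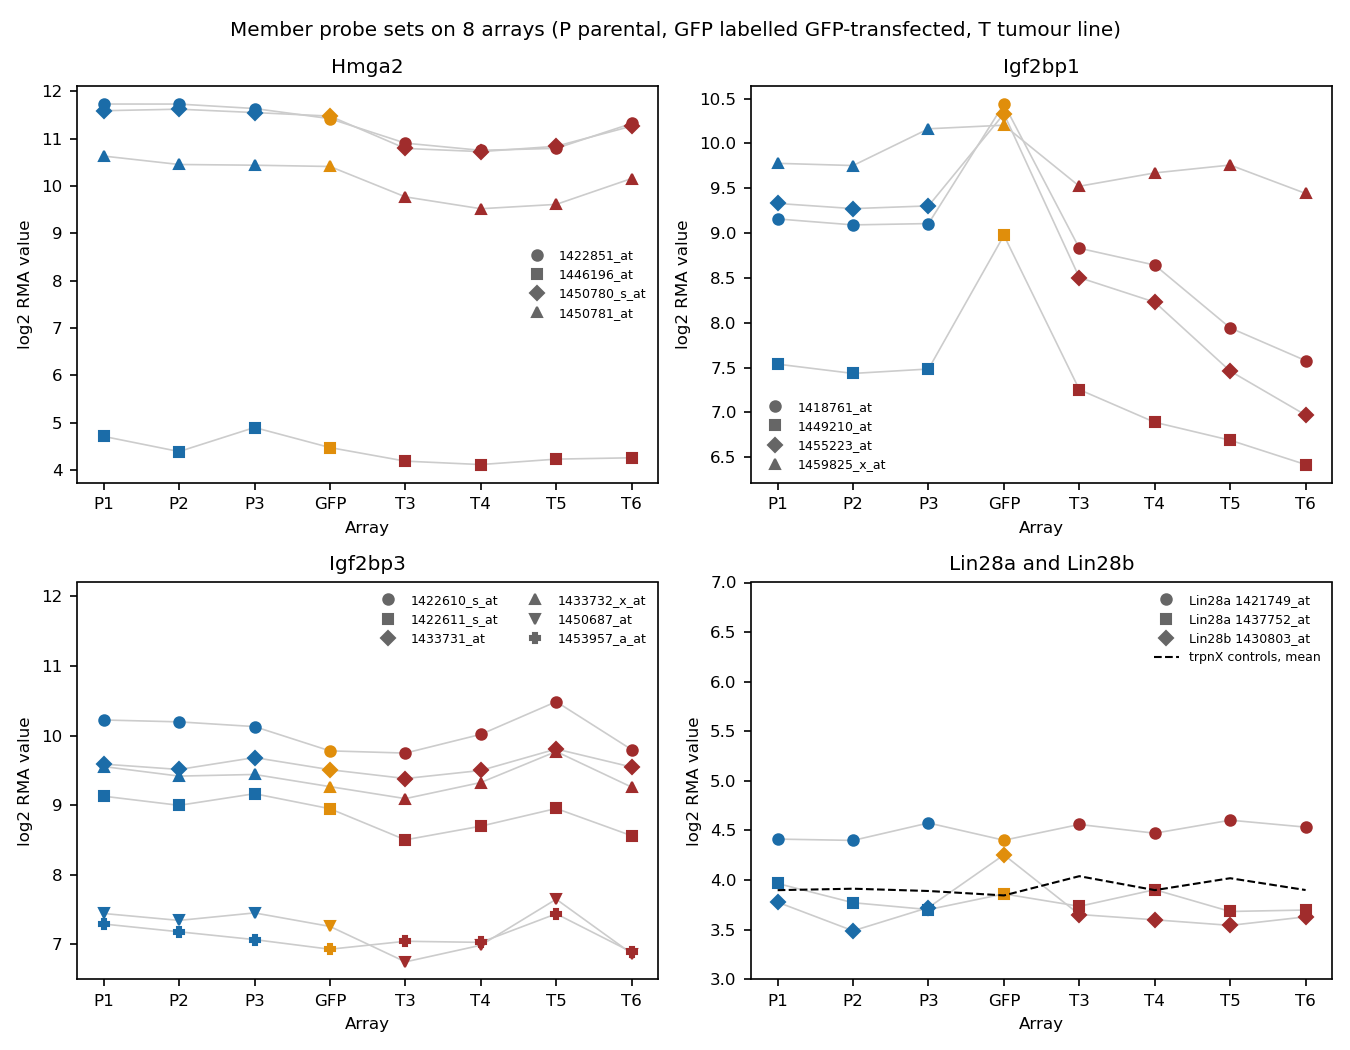
Log2 RMA values of the 17 member probe sets on the 8 arrays, with blue for parental arrays 1 to 3 (P1 to P3), orange for the library labelled GFP-transfected and red for tumour lines 3 to 6 (T3 to T6); grey lines only join the points of 1 probe set, and the dashed line is the mean of the trpnX controls. The 3 bright Hmga2 probe sets are lower in all 4 tumour lines, 3 Igf2bp1 probe sets are highest in the library labelled GFP-transfected and lowest in tumour line 6, and the Lin28 probe sets lie close to the controls.

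The arrays were checked first. The array medians ran from 6.26 to 6.30, and single probe sets of the bacterial trpnX controls, which mark the level without signal, from 3.56 to 4.47. The brightest Mycn probe set read 7.29 to 7.49 on parental arrays and 14.08 to 14.26 in tumour lines, but 11.73 in the library labelled GFP-transfected. Another Mycn probe set, 1417155_at, went the other way, from 8.01 to 8.23 on parental arrays down to 4.53 to 4.69 in tumour lines (-3.53, limma adjusted p = 3.48e-08) and 4.33 in that library. The remaining probe set, 1425922_a_at, was not called. In both probe sets that differed, the library labelled GFP-transfected lay near the tumour lines or between them and parental cells, which goes against its label, and directions drawn from it carry this limit. The 3' minus 5' difference of control transcripts, which tracks RNA integrity, did not overlap between parental arrays and tumour lines for Actb (0.626 to 0.641 and 0.516 to 0.613) or Gapdh (0.053 to 0.078 and 0.092 to 0.151), and the part of these values in the results was not tested. Markers of cell types were read by 1 probe set per gene, and over all genes 16.6% were called higher and 19.4% lower. Of 12 neural crest markers 2 were higher (Msx1 1.05 and Snai2 0.53) and 3 lower (Tfap2b -5.20, Pax3 -1.17 and Ets1 -0.58) in tumour lines. The mean over the 12 was 8.09 to 8.12 on parental arrays and 7.68 to 7.86 on tumour line arrays. Of 10 macrophage and leukocyte markers 3 were higher (Cd14 1.83, Cd68 0.80 and Lyz2 0.49) and 0 lower. The mean over these 10 markers ran from 5.71 to 5.98 across parental arrays and from 6.09 to 6.15 across tumour lines, while the leukocyte gene Ptprc read 3.90 to 4.37 and 4.05 to 4.14, at the level of the trpnX controls. Of 7 endothelial markers 0 were called, and of 6 pluripotency markers 1 was higher (Utf1) and 1 lower (Nanog). Nanog was dim, at 4.83 to 5.10 on parental arrays and 3.74 to 3.89 in tumour lines, the latter within the range of trpnX. The part of these markers in the results was not tested. In such bulk samples, fewer cells that express a gene and less RNA per cell cannot be told apart.

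The LIN28 genes gave little signal. Lin28a probe set 1421749_at read 4.41, 4.40 and 4.57 in parental arrays, 4.40 in the library labelled GFP-transfected, and 4.56, 4.47, 4.60 and 4.53 in tumour lines 3, 4, 5 and 6. The groups overlapped, and the difference between tumour lines and parental arrays was 0.08 (SE 0.08, limma adjusted p = 0.481). The other Lin28a probe set, 1437752_at, lay between 3.68 and 3.96 on all arrays, with a difference of -0.06 (SE 0.09). All these values lie at or just above the trpnX controls. No change of Lin28a was called at this low level.

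Lin28b, whose product blocks let-7 maturation like that of Lin28a, was at background too. Its probe set 1430803_at read 3.78, 3.49 and 3.72 in parental arrays and 3.65, 3.60, 3.54 and 3.63 in tumour lines, with a difference of -0.06 (SE 0.09, limma adjusted p = 0.678). At 4.25, the library labelled GFP-transfected lay above every other array. That was 0.59 above the parental mean (SE 0.13, limma adjusted p = 0.0177), and tumour lines were 0.65 below it (difference -0.65, SE 0.13, adjusted p = 0.00484). The value of 4.25 is itself within the range of single trpnX probe sets, so this call concerns a level that carries little signal.

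Hmga2 was lower in tumour lines in all of its 4 probe sets. Probe set 1422851_at read 11.73, 11.73 and 11.63 in parental arrays, 11.42 in the library labelled GFP-transfected, and 10.90, 10.75, 10.79 and 11.32 in tumour lines 3, 4, 5 and 6. All 4 tumour lines lay below all parental arrays, with line 6 nearest to them. The fall was 1.69-fold (-0.76, SE 0.13, limma adjusted p = 0.00236), from 11.70 ± 0.05 (SD, n = 3) to 10.94 ± 0.26 (SD, n = 4). Probe set 1450780_s_at went from 11.55 to 11.62 in parental arrays to between 10.72 and 11.26 in tumour lines (-0.68, SE 0.13, adjusted p = 0.00308), and 1450781_at from 10.44 to 10.63 to between 9.52 and 10.16 (-0.74, SE 0.15, adjusted p = 0.00422). In both, tumour line 6 was again the highest of the lines. These probe sets share a target accession, so they are not independent readings of the gene.

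The remaining Hmga2 probe set, 1446196_at, was dim, at 4.71, 4.39 and 4.90 in parental arrays and 4.19, 4.11, 4.23 and 4.26 in tumour lines. It was called lower as well (-0.47, SE 0.12, limma adjusted p = 0.0133), but not without parental array 1 (adjusted p = 0.0557) or parental array 3 (0.0508, difference -0.35). Even without tumour line 6, the line nearest to parental cells, or any other array, the 3 bright probe sets kept their call, with differences of -0.62 to -0.88 over all alternatives.

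In the library labelled GFP-transfected, Hmga2 was a little lower than in parental cells, below every parental array in the 3 bright probe sets. Its 4 probe sets differed by -0.28, -0.19, -0.11 and -0.10 from the parental mean, none of them called (lowest limma adjusted p = 0.468). Against that library, 1450780_s_at was called lower in tumour lines (-0.57, SE 0.19, adjusted p = 0.0481). This call ended without any one parental array, without tumour line 3, 4 or 5, and with repeated quantile normalization, with adjusted p-values up to 0.0846. A probe set annotated to the pseudogene Hmga2-ps1, which is no member and was looked at after its values were seen, read 7.90 to 7.97 in parental arrays, 9.22 in the library labelled GFP-transfected and 7.11 to 7.78 in tumour lines. How far it and the Hmga2 probe sets bind the same transcripts was not analysed here.

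Igf2bp1 showed the largest differences among the members and the widest spread between lines. Its probe set 1455223_at read 9.33, 9.27 and 9.30 in parental arrays, 10.33 in the library labelled GFP-transfected, and 8.50, 8.23, 7.46 and 6.97 in tumour lines 3, 4, 5 and 6. All tumour lines were below the parental arrays, line 3 least and line 6 most, while the library labelled GFP-transfected was above them. The fall in tumour lines was 2.85-fold (-1.51, SE 0.32, limma adjusted p = 0.00635), from 9.30 ± 0.03 (SD, n = 3) to 7.79 ± 0.70 (SD, n = 4). The spread of 1.53 between the highest and the lowest line was as large as the mean difference, and that between parental arrays was 0.057.

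Probe sets 1418761_at and 1449210_at gave the same order of lines. The first read 9.16, 9.09 and 9.11 in parental arrays and 8.83, 8.64, 7.94 and 7.58 in tumour lines (-0.87, SE 0.27, limma adjusted p = 0.0368). The second read 7.54, 7.43 and 7.48 and then 7.25, 6.89, 6.69 and 6.42 (-0.67, SE 0.17, adjusted p = 0.0149). In both, no tumour line reached the parental range. Both share a target accession and are 2 readings of the same sequence record. The call of 1418761_at ended without any one parental array (adjusted p of 0.109, 0.0939 and 0.0985 without arrays 1, 2 and 3) and without tumour line 5 (0.0781) or 6 (0.0509). It also ended with a trended and robust variance prior (0.0512) and with repeated quantile normalization (0.0509). The call of 1449210_at ended without parental array 1 (0.0594) or 3 (0.0523), and when the library labelled GFP-transfected was counted among the parental arrays (-1.04, adjusted p = 0.0544).

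The brightest Igf2bp1 probe set, 1459825_x_at, did not share this pattern. It read 9.78, 9.75 and 10.16 in parental arrays, 10.20 in the library labelled GFP-transfected and 9.52, 9.67, 9.76 and 9.44 in tumour lines. Tumour line 5 overlapped the parental arrays, and the difference was -0.30 (SE 0.12, limma adjusted p = 0.0968). The suffix _x_at marks a probe set that can bind several transcripts. When the 4 probe sets were averaged, Igf2bp1 differed by -0.84 (adjusted p = 0.0108), so whether the gene was called depended on which probe set stood for it.

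The library labelled GFP-transfected held the highest Igf2bp1 value of all arrays in every probe set. Its differences from the parental mean were 1.03 for 1455223_at (SE 0.49), 1.32 for 1418761_at (SE 0.41), 1.49 for 1449210_at (SE 0.26) and 0.31 for 1459825_x_at (SE 0.19). Only 1449210_at was called (2.81-fold, limma adjusted p = 0.00611). The others had adjusted p-values of 0.0687 to 0.366, with an SE that takes in the wide spread of the tumour lines. With Lin28b, this made 2 of 17 member probe sets called in this comparison, both as higher, beside 14.4% called over the whole table and 7.59% called higher. The comparison shares the parental arrays with that of the tumour lines, and the group holds 1 array that was assumed to vary like the others.

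Against the library labelled GFP-transfected, tumour lines were lower in all 4 Igf2bp1 probe sets, each of them called. The differences were -2.54 (SE 0.47, limma adjusted p = 0.00383) for 1455223_at, -2.19 (SE 0.40, adjusted p = 0.0034) for 1418761_at and -2.16 (SE 0.25, adjusted p = 0.00031) for 1449210_at. For 1459825_x_at the difference was -0.61 (SE 0.18, adjusted p = 0.0339), and this call ended without tumour line 3 (0.0623) or 6 (0.059) and with repeated quantile normalization (0.0839). In all, 6 of 17 member probe sets were called here, all lower, beside 29% of all probe sets called and 17% called lower. Igf2bp1 gave 4 of the 6, Hmga2 and Lin28b 1 each.

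**Figure D2:**
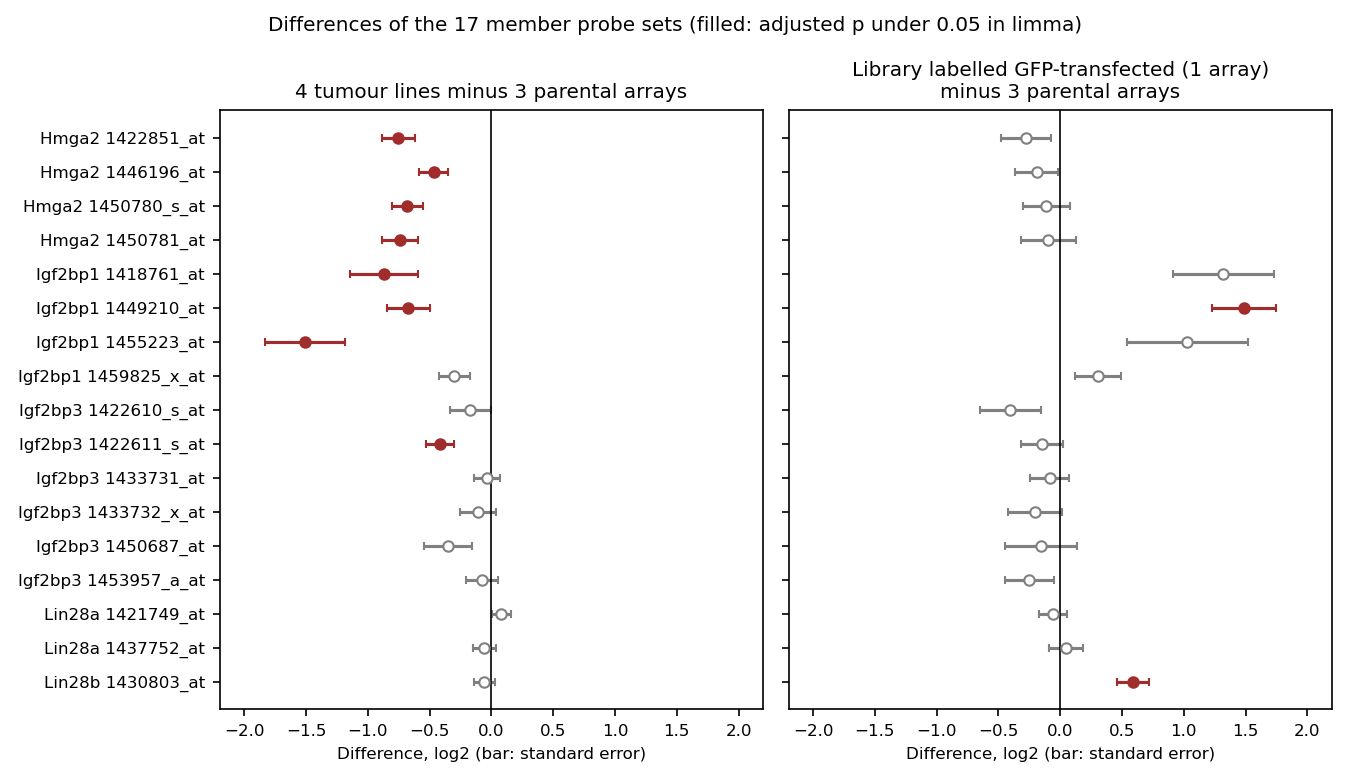
Differences on the log2 scale of the 17 member probe sets, with standard errors as bars, for the 4 tumour lines (left) and the library labelled GFP-transfected (right), each against the same 3 parental arrays; filled points have an adjusted p under 0.05 in limma. On the left 8 points are filled and lie below 0; on the right 2 are filled and lie above 0, Igf2bp1 1449210_at at 1.49 and Lin28b at 0.59.

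Igf2bp3, the third member of its family and like Igf2bp1 an mRNA-binding protein gene, kept a strong signal on all arrays. The promoter window of the gene, from 250 bases before to 50 after its start, is shown because it holds the letters CACGTG more than once. This palindrome, read alike on both strands, is the E-box bound by MYC and MYCN proteins. The windows come from RefSeq (GRCm38.p6), which gave them for 4 of the 5 measured members, and Igf2bp1 had no entry. The capitals mark each CACGTG:
Igf2bp3, chr6:49214905-49215204, minus strand: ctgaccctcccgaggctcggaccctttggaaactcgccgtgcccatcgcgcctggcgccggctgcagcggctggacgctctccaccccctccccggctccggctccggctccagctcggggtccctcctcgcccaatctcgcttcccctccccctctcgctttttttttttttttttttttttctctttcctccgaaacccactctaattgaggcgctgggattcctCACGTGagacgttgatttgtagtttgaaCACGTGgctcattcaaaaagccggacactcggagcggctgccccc
Lin28b, chr10:45470152-45470451, minus strand: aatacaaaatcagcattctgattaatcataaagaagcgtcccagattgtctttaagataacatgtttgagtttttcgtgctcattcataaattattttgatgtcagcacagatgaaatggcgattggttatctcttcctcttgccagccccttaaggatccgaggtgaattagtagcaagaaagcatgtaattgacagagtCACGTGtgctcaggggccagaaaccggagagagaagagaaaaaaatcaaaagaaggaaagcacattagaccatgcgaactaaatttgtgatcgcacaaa
The Igf2bp3 window holds 2 copies, which begin 23 bases before and 5 bases after the annotated start, and the Lin28b window holds 1, which begins 49 bases before it. The windows of Hmga2 and Lin28a hold 0. Over all 32841 windows of this length, 7.15% hold at least 1 copy. A match describes these letters and does not show binding.

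The Igf2bp3 probe set with the highest mean, 1422610_s_at, read 10.22, 10.20 and 10.13 in parental arrays, 9.78 in the library labelled GFP-transfected, and 9.75, 10.02, 10.49 and 9.80 in tumour lines 3, 4, 5 and 6. Line 5 lay above the parental arrays and the other lines below them, so that the difference was -0.17 (SE 0.16, limma adjusted p = 0.491). Line 5 was the highest of the tumour lines in all 6 Igf2bp3 probe sets, at 0.30 above the parental mean for 1422610_s_at, 0.30 for 1433732_x_at, 0.26 for 1453957_a_at, 0.24 for 1450687_at and 0.21 for 1433731_at. In 1422611_s_at line 5 was 0.14 below it (8.95 against 8.997 to 9.16 in parental arrays).

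Of the 6 Igf2bp3 probe sets, only 1422611_s_at was called lower. It read 9.13, 8.997 and 9.16 in parental arrays and 8.50, 8.70, 8.95 and 8.56 in tumour lines, a fall of 1.34-fold (-0.42, SE 0.11, limma adjusted p = 0.0204). The call ended without parental array 1 (0.074) or 3 (0.0789) and without tumour line 6 (0.0509). The other 5 differed by -0.04 to -0.35, with adjusted p-values of 0.21 to 0.837. Without tumour line 5, 1422610_s_at (-0.33, adjusted p = 0.0283) and 1450687_at (-0.55, adjusted p = 0.00212) were called lower, so that line decided whether these probe sets were called. In the library labelled GFP-transfected, the Igf2bp3 probe sets differed from parental arrays by -0.09 to -0.40, and 0 were called.

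The lines thus ranked differently for each gene. Tumour line 6 had the lowest Igf2bp1 in all 4 probe sets and the highest Hmga2 among the lines in the 3 bright probe sets. Line 5 had the highest Igf2bp3 and, next to line 6, the lowest Igf2bp1 in 3 of 4 probe sets. With 1 array per line, these differences between lines have no replicate check, and the only yardstick is the spread of parental arrays, which was at most 0.104 in the 3 Igf2bp1 probe sets with large differences.

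**Figure D3:**
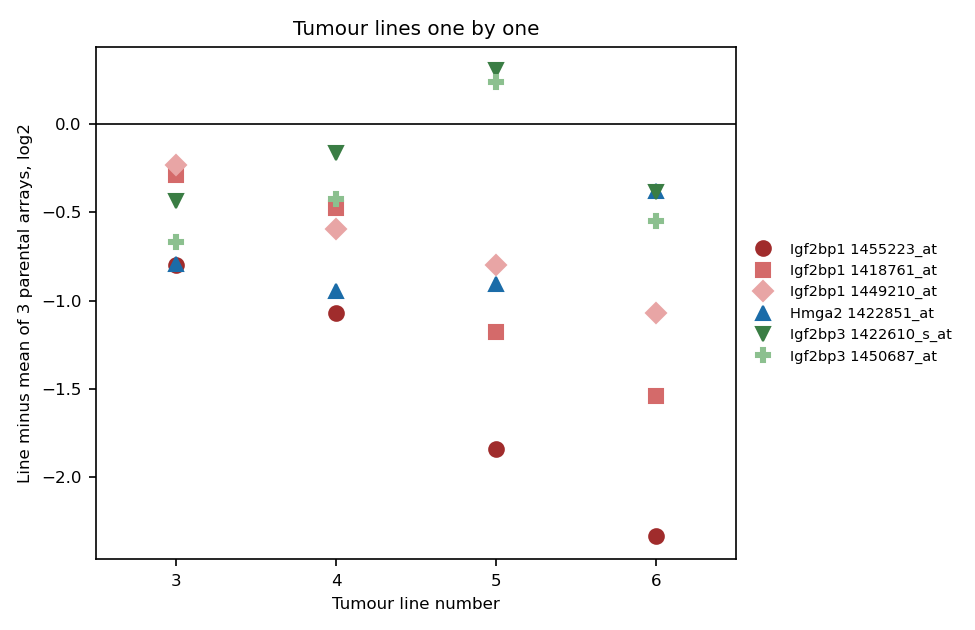
Difference of each tumour line from the mean of the 3 parental arrays on the log2 scale, for 3 probe sets of Igf2bp1, 1 of Hmga2 and 2 of Igf2bp3; line numbers are names and have no order. Igf2bp1 1455223_at lies at -0.80, -1.07, -1.84 and -2.33 in lines 3, 4, 5 and 6, Hmga2 1422851_at is nearest to 0 in line 6 (-0.38), and both Igf2bp3 probe sets are above 0 in line 5 only.

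Genes with a like pattern over the 8 arrays were sought for members whose probe set of highest mean spanned at least 1 log2 unit, and 0 members did. A search made after the values were seen used the probe set of widest span of each gene instead. For Igf2bp1 1455223_at, the closest of 16329 named genes was the homeobox gene Dlx2, with a root mean square difference of 0.27 between centred profiles (Pearson's r = 0.98 over 8 arrays), then Clec1a (0.31) and Crybg2 (0.33). Dlx2 read 8.45 to 8.63 in parental arrays, 9.40 in the library labelled GFP-transfected and 6.58 to 7.61 in tumour lines. For Hmga2 1450781_at the closest were Dnajc13 (0.10), the prohormone-processing enzyme gene Cpe (0.10) and Zfp934 (0.11). The arrays share 3 groups, so that many genes have such profiles, and the likeness is a description.

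The rest of the pathway was read gene by gene, each by its probe set of highest mean, with p-values adjusted over 18193 genes. On this scale 36% of all genes were called for tumour lines against parental cells, 16.6% as higher and 19.4% as lower, with a median difference of 0.013. The 10 lists were written from textbook knowledge, but with earlier results of these data known, so their counts are a description. Some listed genes were not analysed here.

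Genes that process microRNAs or act with LIN28 on let-7 precursors were lower in 6 of 18 cases and higher in 3, with a median of -0.20. Without parental array 1 or 2, 1 rather than 3 was higher. The same held with the library labelled GFP-transfected counted among the parental arrays (here called the joined group). That library read 11.73 for Mycn 1425923_at, beside 7.29 to 7.49 on parental arrays. The joined group is thus not a clean control, and calls that ended against it carry this limit. The largest fall was that of Trim71, the vertebrate lin-41, itself a classical let-7 target and a gene of embryonic cells. It read 8.65, 8.43 and 8.34 in parental arrays, 9.12 in the library labelled GFP-transfected, and 5.66, 6.04, 5.19 and 4.996 in tumour lines (-3.00, SE 0.23, limma adjusted p = 2.82e-05). Its other probe set fell by 1.81. Tut4, the enzyme that adds uridines to let-7 precursors bound by LIN28, fell by 1.74 (SE 0.15, adjusted p = 5.21e-05), and was 10.53 in the library labelled GFP-transfected beside a parental mean of 10.63. The splicing and let-7 binding protein gene Hnrnpa1 fell by 0.69 (SE 0.07), a call that ended without _x_at and _s_at probe sets (-0.14, adjusted p = 0.285). Of its other probe sets, 1455740_at was called lower (-0.48) and 1436549_a_at was not called. Dicer1, the enzyme that cuts precursors to mature microRNAs, fell by 0.68 (SE 0.14, adjusted p = 0.0046), while its other probe set differed by -0.19 and was not called. Dis3l2, the nuclease that degrades uridylated let-7 precursors, differed by -0.02 (SE 0.08, adjusted p = 0.897). Tarbp2, a Dicer partner, rose by 0.36 (SE 0.07). Its call ended against the joined group (0.28, adjusted p = 0.0514).

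The let-7 family itself is not measured by these probe sets, but transcripts that host some of its members are. The mature sequences of the let-7 microRNAs that lie within measured host genes are shown from RefSeq (GRCm38.p6), with the seed, bases 2 to 8, in capitals, because all share the seed through which the family reaches its targets:
mmu-let-7b-5p: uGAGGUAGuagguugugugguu
mmu-let-7c-5p: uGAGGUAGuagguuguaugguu
mmu-let-7f-5p: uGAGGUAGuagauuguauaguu
mmu-miR-98-5p: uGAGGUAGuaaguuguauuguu
Lncppara, whose annotated span holds let-7b and a copy of let-7c, rose from 6.62 ± 0.22 (SD, n = 3) to 7.35 ± 0.03 (SD, n = 4), a difference of 0.73 (SE 0.10, limma adjusted p = 0.000645). Huwe1, a ubiquitin ligase gene whose span holds a copy of let-7f and miR-98, fell by 0.52 (SE 0.09, adjusted p = 0.00263), though 3 of its 5 probe sets were not called, and averaged over them it differed by -0.16 (adjusted p = 0.194). Mir99ahg, listed as a host although its annotated span held none of the let-7 loci, fell by 1.31 (SE 0.16) and also differed by -1.63 in the library labelled GFP-transfected. Against the joined group its call ended (-0.90, adjusted p = 0.11). Host transcripts do not measure the mature microRNAs.

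Other let-7 targets went both ways, 4 of 24 higher and 6 lower, with a median of 0.013. Cdk6, a kinase of the G1 phase, fell from 10.50 to 10.65 in parental arrays to between 8.70 and 9.49 in tumour lines (-1.38, SE 0.18, limma adjusted p = 0.000526), and its other probe sets fell by 1.65 and 1.20. The transcription factor gene Plagl2 fell by 0.76 (SE 0.07), but its dim probe set 1417518_at rose by 0.39. The insulin receptor gene Insr fell by 0.64 (SE 0.06), with its other probe sets not called. The cytokine gene Il6 rose from 4.35 ± 0.21 (SD, n = 3), near background, to 7.01 ± 0.85 (SD, n = 4), and Irs2, an insulin receptor substrate gene, rose by 1.09 (SE 0.19). Myc, both a let-7 target and an IGF2BP client, rose by 1.26 (SE 0.25, adjusted p = 0.00443). In the library labelled GFP-transfected it differed by -1.41 from the parental mean. Whether the MYC fusion carried by JoMa1 adds to this reading was not tested.

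Among mRNAs known as IGF2BP clients, 7 of 12 were higher and 2 lower, with a median of 0.51. Without parental array 1, or without parental array 3, 4 were higher and 1 lower, and without parental array 2 or tumour line 5, 5 were higher and 1 lower. Without tumour line 3 or 4, or against the joined group, the lower count was also 1. Abcb1b, a drug efflux pump gene, rose by 1.95 (SE 0.13) and was also 2.17 above the parental mean in the library labelled GFP-transfected. Against the joined group its call ended (1.41, limma adjusted p = 0.0538). The transcription factor gene Klf4 rose by 1.46 (SE 0.29). Igf2, the growth factor gene that gave the family its name, read 8.15, 7.94 and 7.91 in parental arrays, 6.43 in the library labelled GFP-transfected and 6.72, 6.53, 6.83 and 6.83 in tumour lines. It fell by 1.27 (SE 0.10, adjusted p = 2.99e-05), and against the joined group the call ended (-0.88, adjusted p = 0.0901). Its other probe set was near background and differed by -0.03.

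RNA-binding proteins that share particles with IGF2BP proteins were lower in 8 of 16 cases, with 1 higher and a median of -0.22. With the probe sets of each gene averaged, 4 were higher and 7 lower. The double-stranded RNA-binding protein genes Stau1 (-0.75, SE 0.08) and Stau2 (-0.61, SE 0.12) and the fragile X gene Fmr1 (-0.53, SE 0.08) fell, and its relative Fxr2 rose by 0.60 (SE 0.09). Stau2 was also 0.83 below the parental mean in the library labelled GFP-transfected (difference -0.83). Its call ended against the joined group (-0.41, limma adjusted p = 0.186). Of 12 genes that write, erase or read m6A, the mRNA mark that IGF2BP proteins recognise, 5 were lower and 1 higher, with a median of -0.15. Without any one parental array 3 were lower, and against the joined group 4 were lower and 0 higher. With array weights, with averaged probe sets or with dim probe sets left out, 2 rather than 1 were higher. The methyltransferase subunit gene Mettl14 fell by 0.53 (SE 0.07) and the reader gene Ythdf1 by 0.36 (SE 0.07).

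Architectural chromatin proteins other than HMGA2 fell in 4 of 8 cases and rose in 1, with a median of -0.28. Against the joined group 4 were lower and 0 higher. The HMG-box genes Hmgb3 (-0.91, SE 0.08) and Hmgb2 (-0.90, SE 0.10) fell, and all 3 probe sets of Hmgb2 were called lower. Of 13 genes linked to HMGA proteins, 2 were higher and 5 lower, with a median of -0.13. Without any one parental array, or against the joined group, 3 were lower. The kinase inhibitor gene Cdkn1a fell by 2.57 (SE 0.09), the epithelial-mesenchymal transition factor genes Snai1 (1.14, SE 0.10) and Snai2 (0.53, SE 0.12) rose, and Cdkn2a, which Hmga2 is known to repress in neural stem cells, differed by 0.08 (SE 0.14, limma adjusted p = 0.697). Snai1 and Snai2 differed by -0.88 and -0.82 in the library labelled GFP-transfected.

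Of other fetal growth genes, 9 of 13 fell, with 1 higher and a median of -0.79. Against the joined group, 6 were called, all lower. The largest falls were those of the imprinted genes Dlk1 (-4.74, SE 0.11), Peg3 (-4.25, SE 0.11) and Mest (-3.67, SE 0.46), which were also below the parental mean in the library labelled GFP-transfected, by differences of -1.16, -2.36 and -3.66. Igf2r, the receptor that clears IGF2, fell by 1.81 (SE 0.11). Of 14 genes of IGF2 signalling, 4 were higher and 5 lower, with a median of 0.11. Without any one parental array 3 were lower, and with the probe sets of each gene averaged the balance turned to 6 higher and 3 lower. The binding protein gene Igfbp4 rose by 3.31 (SE 0.10).

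Afp, which encodes the fetal serum protein alpha-fetoprotein, was the fetal gene that rose. It read 5.72, 5.38 and 5.53 in parental arrays, 11.10 in the library labelled GFP-transfected, and 8.71, 7.55, 8.50 and 9.26 in tumour lines (2.96, SE 0.34, limma adjusted p = 0.000239). The single library was thus higher than every tumour line, and against the joined group the call ended (1.57, adjusted p = 0.394). Of its 5 probe sets, 3 were called higher and 2 were not called. The other 4 liver markers overlapped between the groups, with Alb at 5.46 to 5.65 on parental arrays and 5.29 to 5.59 in tumour lines, and 0 of the 4 were called.

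**Figure D4:**
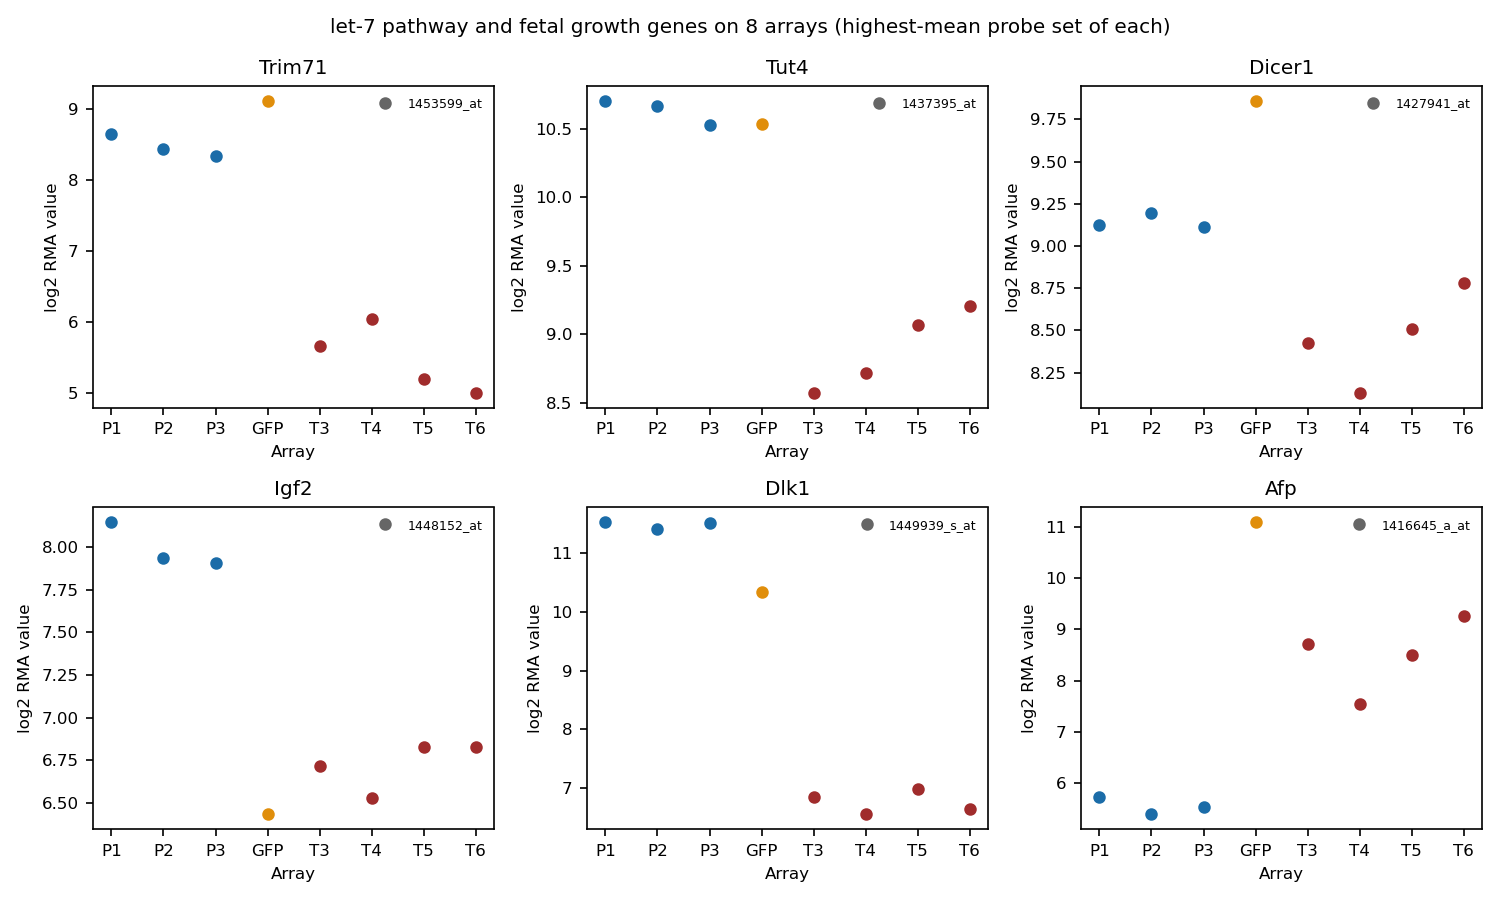
Log2 RMA values of 6 genes of the let-7 pathway or fetal growth on the 8 arrays, each by its probe set of highest mean, with blue for parental arrays, orange for the library labelled GFP-transfected and red for tumour lines; axes differ between panels and do not start at 0. Trim71 and Tut4 are lower in the 4 tumour lines than on any other array, Igf2 is lower in tumour lines and in the library labelled GFP-transfected, and Afp is highest in that library at 11.10.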

How the data were processed

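RNA of 8 samples was measured on 8 Affymetrix expression arrays. The deposited table holds log2 values per probe set, made by the authors with RMA and Partek per the submitters' processing notes, whose versions are not given; the scale follows from the range of the deposited values. Of 45101 probe sets, 64 were controls, 932 carried several gene symbols and 9160 none, and these were left out. The 34945 others were fitted with limma (version 3.58.1, R 4.3.3; lmFit, eBayes), with 1 coefficient per group, two-sided tests and Benjamini-Hochberg adjustment, after a check on simulated data. Pathway genes took their probe set of highest mean (18193 genes). RMA pulls dim signals to a floor and removes changes in total RNA, so differences of dim genes are understated. The number of arrays limits the precision.

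Named genes were all members, Mycn, fixed pathway genes and up to 3 called rises and 3 falls per list. Members and lists were chosen with earlier results of these data known. Alternatives were other probe set choices, a level filter, variance priors, array weights, 2 normalizations, pooling the library labelled GFP-transfected with parental arrays, and leaving out each array; leaving out that library was added after seeing the data.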

Additional observations from a re-analysis of the deposited data

How the results depend on the processing

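No paired analysis was possible because the labels pair no parental array with a tumour line, and the numbers of arrays and lines are only names. Of 700 values of member probe sets under the alternatives, 654 kept direction and side of the threshold, 25 lost and 13 gained the call, and 8 uncalled differences of Igf2bp3, Lin28a and Lin28b changed sign, to at most 0.04 in size (lowest adjusted p = 0.872). Leaving out 1 array gave 4 to 9 member probe sets called for tumour lines against parental cells, beside 8937 to 11930 in the whole table. In the other comparison, of the library labelled GFP-transfected against parental arrays, the whole table gave 3334 to 5762 (3334 without parental array 3). With 1 probe set per gene, which leaves 5 members and 18193 genes, 1 member was called for tumour lines against parental cells, 1 for the library labelled GFP-transfected against parental arrays and 2 for tumour lines against that library, with 6547, 2927 and 5514 of all genes. With all probe sets of a gene averaged, these were 2, 1 and 3 members and 6463, 2944 and 5544 genes. Of the named pathway genes, Dgcr8 reversed with that mean (-0.042, adjusted p = 0.713, from a called 0.25). Leaving the library labelled GFP-transfected out of the fit left 8 of 17 members called. Low signal limits what the Lin28a and Lin28b probe sets, near the trpnX level, can show.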
